A study of Rattus norvegicus with 9 samples.

Results

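Passage 9 (P9) cells and flow-sheared cells, which the study set up as models of replicative senescence and of stress-induced degeneration, were compared directly in 6 of the 9 polyadenylated RNA libraries of the series. All cells were wild-type (WT) primary cartilage progenitor cells from the condylar cartilage of rats. P9 is 3 libraries of cells cultured in vitro up to passage 9, and FFSS is 3 libraries from cells at passage 3 to which flow fluid shear stress was applied. The remaining 3 libraries, P3, are the untreated passage 3 controls and serve here as a reference level. The labels give no strength or duration of the flow, no age of the animals, and no statement that replicates came from separate animals or cultures, so the p-values below measure the spread between these libraries, which may be technical. P9 and FFSS differ in passage number and in flow at once, so in their direct comparison the contributions of passage and of flow cannot be told apart. The comparison took in 12583 of the 34267 genes in the deposited table, those with at least 1 FPKM (fragments per kilobase of gene length, scaled for sequencing depth) in at least 3 of the 6 libraries.

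Condylar cartilage covers the head of the mandible and is a fibrocartilage: under its surface lie progenitor cells that divide, enter chondrogenesis under SOX9, SOX5 and SOX6, and lay down aggrecan and collagens. Repeated passaging of such cells is known to bring arrest through the cyclin-dependent kinase inhibitors p16 and p21, and a spread, stress fibre-rich shape on plastic. Fluid shear acts through integrins, ion channels and the cytoskeleton on MAP kinases and NF-kB, which switch on immediate early genes within a short time and inflammatory and matrix-degrading genes later.

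The libraries held 13264930 to 15323790 fragments each, at which 1 fragment on a gene of 1 kilobase was worth 0.0619 to 0.0733 FPKM. FFSS replicate 1 stood apart from its group. Across genes, its log2(FPKM + 1) values correlated with those of FFSS replicates 2 and 3 at r = 0.913 and 0.947, against 0.970 between replicates 2 and 3 and 0.960 to 0.982 among the P9 libraries. The root mean square of the gene-wise SD was 0.326 in P9 and 0.456 in FFSS on the log2 scale. Mitochondrially encoded genes took 2.31% to 2.56% of fragments in P9 and 2.96% to 3.75% in FFSS. Results that depend on a single library are given with and without it.

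Differences are P9 minus FFSS on the log2(FPKM + 1) scale with the standard error (SE), 3 libraries a group. A gene is called where the Benjamini-Hochberg adjusted p of limma was under 0.05. Some genes reached 1 FPKM in every library of 1 group and in no library of the other. They passed the filter through that group alone, which fixed their direction and lack of overlap, so their p-values are no separate support. Examples are Mmp13, Ifi44, Cd68 and Gdf5 toward FFSS and Stmn2, Hey1 and Notch3 toward P9. Such genes are included in the counts of calls. Between P9 and FFSS, 4099 of the 12583 genes were called (32.6%), of which 2110 were higher in P9 (16.8% of genes tested) and 1989 were higher in FFSS (15.8%). The median difference over all genes was 0.00. A difference of at least 1 on the log2 scale was found for 796 of the calls higher in P9 and 907 of those higher in FFSS, and 1239 and 1171 calls held in each of the 9 fits that left out 1 library. Without FFSS replicate 1 the counts were 3054 and 2895, and without FFSS replicate 3 they were 1421 and 1294. The programs called mostly in P9 were mitosis, DNA replication, the contractile apparatus and YAP, Hippo and SRF genes. Those called mostly in FFSS were immediate early genes, NF-kB signalling, chemokines, acute phase and complement genes, small leucine-rich proteoglycans, metallothioneins, the circadian clock and lysosomal genes.

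**Figure D1:**
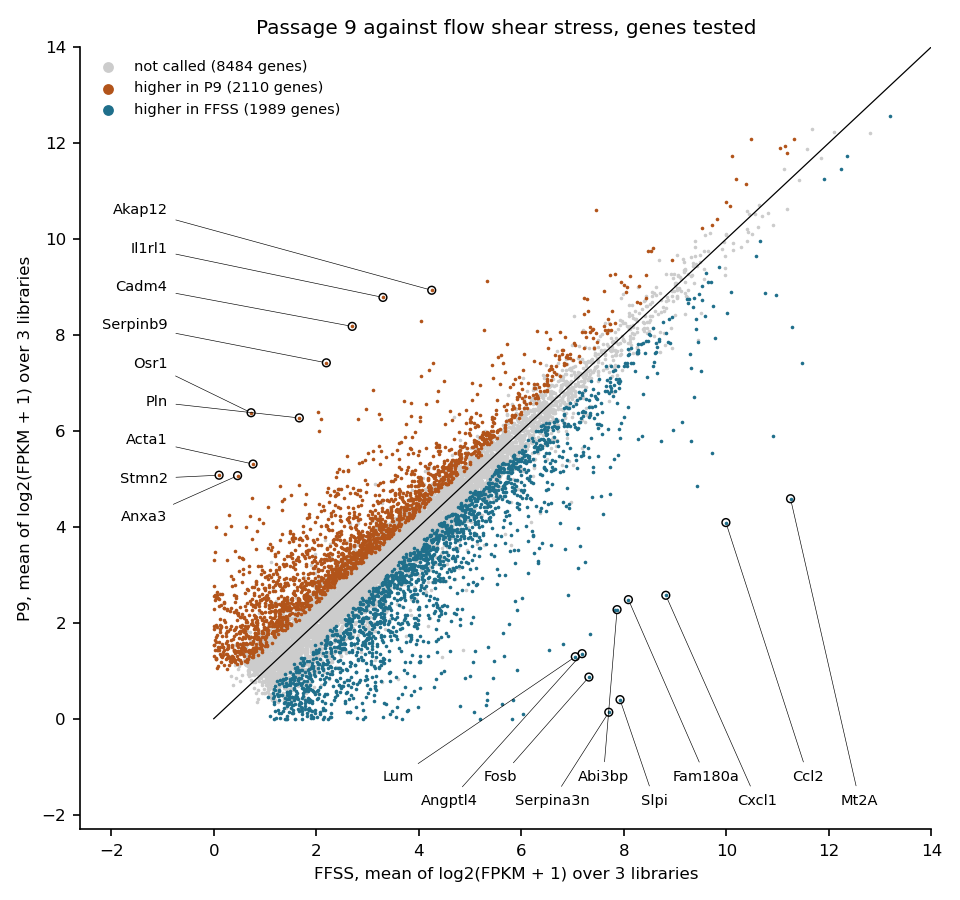
Mean log2(FPKM + 1) over the 3 FFSS libraries (x axis) against the 3 P9 libraries (y axis) for the 12583 genes tested; orange, higher in P9 (2110 genes); blue, higher in FFSS (1989 genes); grey, not called; the line marks equal levels. Ringed and named are the 10 largest differences toward FFSS and 9 of the 10 largest toward P9 under the naming rule, from Serpina3n, Slpi and Mt2A at the lower right to Akap12 and Il1rl1 at the upper left.

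The 10 largest differences toward FFSS were led by secreted proteins. Serpina3n, an acute phase serine protease inhibitor (chromosome 6, 127941526 to 128080889, Rnor_6.0), read 0.0731, 0.0654 and 0.159 FPKM in P9 and 53.4, 510.1 and 327 FPKM in FFSS. Its difference was -7.57 ± 0.72 (SE) (adjusted p = 0.000144), with FFSS replicate 1 far below the other two FFSS libraries and still above every P9 library. The gene belongs to a family of near-identical copies, whose fragments the counting may have split. Slpi, a secreted inhibitor of leukocyte elastase (chromosome 3, 160799981 to 160802433), read 0.257, 0.153 and 0.578 FPKM in P9 and 1353, 25.1 and 407 FPKM in FFSS. It differed by -7.53 ± 1.19 (SE) (adjusted p = 0.00188) and varied the opposite way within FFSS, with replicate 1 highest and replicate 2 lowest. With voom on rebuilt fragments its call was lost (adjusted p = 0.124). Angptl4, an inhibitor of lipoprotein lipase, stood at 1.59, 1.11 and 2.06 FPKM in P9 and 196, 112 and 137 FPKM in FFSS. Fam180a, a gene of little known function, read 3.49, 1.96 and 12.1 FPKM in P9 and 80.2, 632 and 393 FPKM in FFSS. Abi3bp, an extracellular matrix protein that binds integrins, read 2.48, 2.7 and 7.78 FPKM in P9, 264, 202 and 236 FPKM in FFSS and 155, 134 and 185 FPKM in P3. For Abi3bp it was thus the P9 libraries that lay far from the P3 level, while Angptl4 lay above P3 in FFSS and below it in P9. Mt2A, Fosb, Cxcl1, Ccl2 and Lum complete these 10 and are described with their programs.

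The largest differences toward P9 were of another kind. Osr1, a zinc finger transcription factor of early limb and jaw mesenchyme (chromosome 6, 35314444 to 35321667), read 71.2, 100.1 and 77.7 FPKM in P9 and 1.13, 0.251 and 0.707 FPKM in FFSS, a difference of 5.65 ± 0.33 (SE) (adjusted p = 1.23e-05). Il1rl1, the receptor for interleukin 33 (chromosome 9, 47134034 to 47182170), read 551, 459 and 334 FPKM in P9, 17.6, 3.89 and 9.52 FPKM in FFSS and 32.9, 43.9 and 29 FPKM in P3. Its 3 groups did not overlap, with P9 highest, P3 between and FFSS lowest. Cadm4, an immunoglobulin-type adhesion molecule, read 276, 351 and 248 FPKM in P9 and 5.26, 5.93 and 5.34 FPKM in FFSS. Serpinb9, an intracellular inhibitor of granzyme B, read 226, 165 and 131 FPKM in P9 and 7.63, 1.61 and 3.27 FPKM in FFSS. Akap12, a scaffold for protein kinases A and C, read 509, 518 and 438 FPKM in P9 and 37.4, 8.42 and 18.2 FPKM in FFSS. The FFSS libraries spread over several fold for Serpinb9 and Akap12, with replicate 1 highest and replicate 2 lowest, and none reached a P9 library. Stmn2, a microtubule-destabilising protein best known from neurons, read 30.7, 27.9 and 40.9 FPKM in P9, 0.13, 0.0998 and 0 FPKM in FFSS and 0.385, 1.41 and 0.46 FPKM in P3. Anxa3, a calcium-dependent membrane-binding annexin, read 31.7, 32.3 and 33.4 FPKM in P9 and 0.684, 0.193 and 0.31 FPKM in FFSS. Pln and Acta1, also among these, belong to the contractile list.

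**Figure D2:**
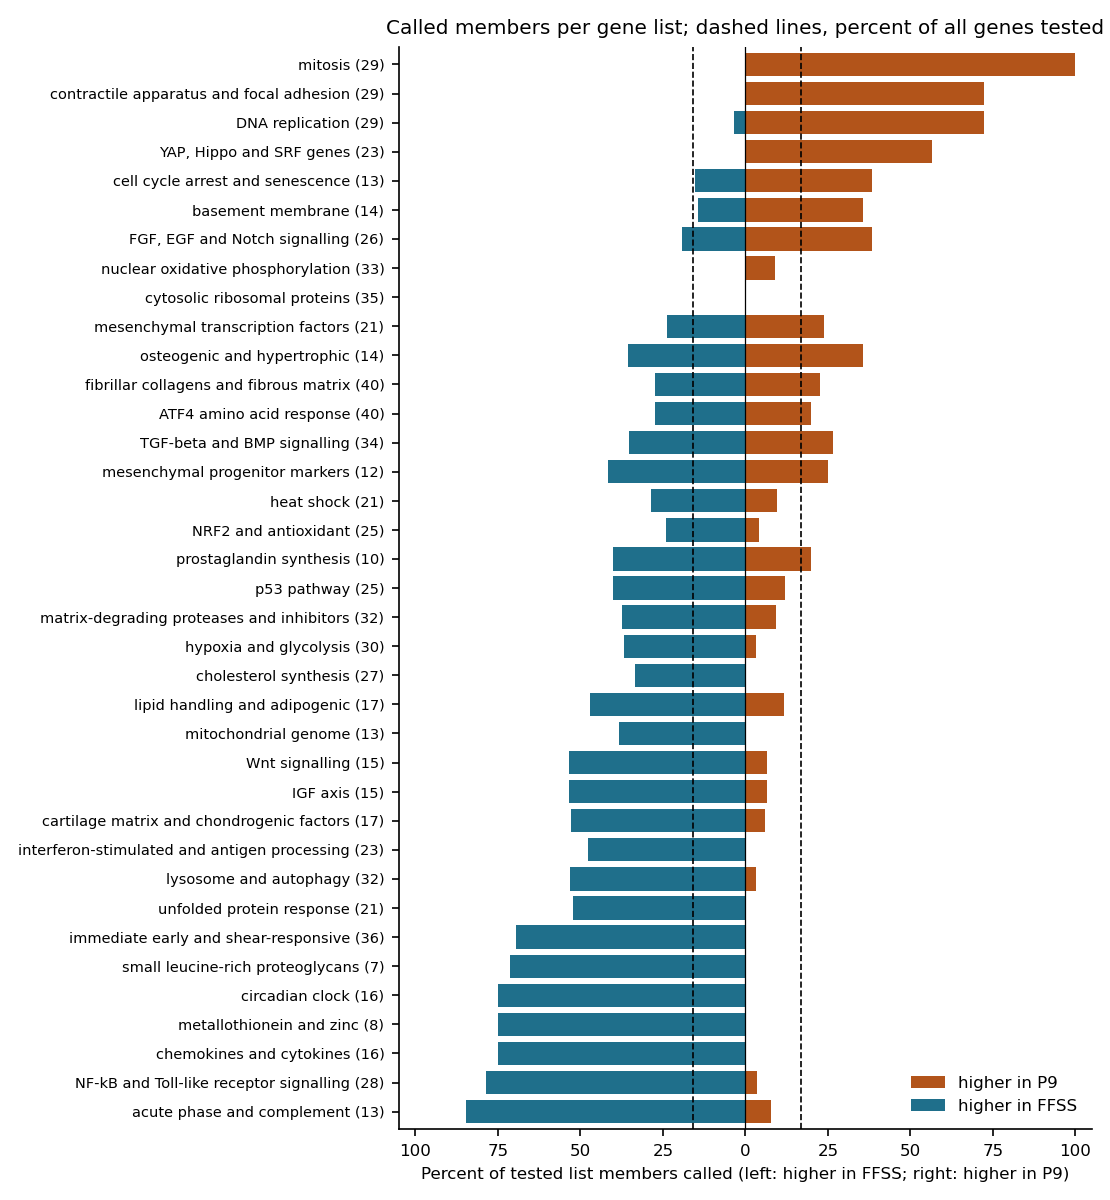
Percent of the tested members of each gene list (number tested in parentheses) called higher in P9 (orange, to the right) or higher in FFSS (blue, to the left); dashed lines mark the percent over all genes tested, 16.8 and 15.8. Mitosis has all 29 members to the right and acute phase and complement 11 of 13 to the left, while cytosolic ribosomal proteins have none on either side.

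The mitosis list showed the most uniform split. All 29 tested members were called higher in P9, against 16.8% of all genes in that direction, and the count was 29 in each of the 9 fits without 1 library. Their median difference was 2.07. Against the P3 libraries, which both models share as their reference, the list's median was 0.24 in P9 and -1.84 in FFSS, so that on this measure the passage 9 cells were close to the passage 3 level and the flow-sheared cells below it. In bulk RNA, fewer cells in mitosis and less RNA per cell cannot be told apart. Mki67, the proliferation antigen Ki-67 (chromosome 1, 207993895 to 208020454), read 13.2, 12.3 and 12.6 FPKM in P9, 5.88, 0.875 and 2.4 FPKM in FFSS and 13.5, 13.7 and 12.4 FPKM in P3. It differed by 1.96 ± 0.38 (SE) (adjusted p = 0.00482), and the P9 and P3 libraries overlapped. Aurka, the centrosomal kinase Aurora A, read 14.6, 12 and 13.5 FPKM in P9 and 3.35, 1.54 and 1.26 FPKM in FFSS, a difference of 2.30 ± 0.23 (SE) (adjusted p = 0.000208). Anln, the cytokinetic scaffold anillin, read 55.3, 45.5 and 51.6 FPKM in P9 and 14.6, 4.84 and 7.9 FPKM in FFSS. Ccnb1, cyclin B1 of the mitotic kinase, read 37.1, 34.3 and 32.9 FPKM in P9 and 10.7, 1.2 and 6.41 FPKM in FFSS and was chosen after its values were seen. In Mki67, Anln and Ccnb1 FFSS replicate 1 was the highest FFSS library and replicate 2 the lowest, and each FFSS library was below each P9 library. Cenpe, a kinetochore motor, read 8.29, 7.37 and 8.39 FPKM in P9 and 2.27, 1.41 and 2.11 FPKM in FFSS. Cdc25b, a phosphatase that starts mitotic entry, read 14.1, 13.6 and 16.4 FPKM in P9 and 7.25, 4.32 and 5.06 FPKM in FFSS.

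DNA replication genes went the same way less evenly. Of 29 tested, 21 were called higher in P9 and 1 higher in FFSS, against 16.8% and 15.8% of all genes. The median difference was 0.97, with medians from P3 of 0.23 in P9 and -0.81 in FFSS. The count of 21 was 11 without P9 replicate 1 or 2, 13 without P9 replicate 3 or FFSS replicate 3, and 8 in a fit of the 6 libraries alone. Ccne1, cyclin E1 of the entry into S phase, read 13.3, 11.7 and 11.8 FPKM in P9 and 5.99, 4.11 and 4.55 FPKM in FFSS. Tyms, thymidylate synthase, read 14.5, 13 and 12.8 FPKM in P9, 6.12, 1.57 and 3.03 FPKM in FFSS and 6.31, 5.4 and 5.84 FPKM in P3. Rrm1, the large subunit of ribonucleotide reductase, read 33.9, 31.7 and 32.4 FPKM in P9 and 18.6, 6.63 and 9.35 FPKM in FFSS, and Pole, the leading strand polymerase, 6.43, 5.71 and 5.17 and 2.76, 0.406 and 1.11 FPKM. In Tyms, Rrm1 and Pole FFSS replicate 1 held most of the FFSS signal, and the P9 libraries lay close together. The member called toward FFSS was Cdt1, the licensing factor that loads the replicative helicase, at 5.7, 4.89 and 5.5 FPKM in P9 and 8.48, 8.37 and 7.21 FPKM in FFSS. Its adjusted p was 0.0124, and 0.0521 without P9 replicate 2.

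Among the 13 tested genes of cell cycle arrest and senescence, 5 were higher in P9 and 2 higher in FFSS, against 16.8% and 15.8% of all genes. Without FFSS replicate 1 the 2 became 4. Cdkn2a, which encodes p16 and ARF, read 12.7, 13.8 and 12.4 FPKM in P9, 2.85, 5.25 and 5.66 FPKM in FFSS and 6.65, 7.77 and 6.22 FPKM in P3. It differed by 1.36 ± 0.20 (SE) (adjusted p = 0.00144), with P9 above P3 and FFSS below it in every library. Cdkn2b, the p15 inhibitor, read 15.2, 13.6 and 16.7 FPKM in P9 and 8.15, 13.2 and 10.2 FPKM in FFSS. Its adjusted p was 0.044, and the call was lost in 8 of the 9 fits without 1 library. Cdkn1a, the p53-induced inhibitor p21, was not called: it read 115, 139 and 151 FPKM in P9 and 67.2, 284 and 202 FPKM in FFSS, a difference of -0.23 ± 0.44 (SE) (adjusted p = 0.722). FFSS replicate 1 lay below all P9 libraries and replicates 2 and 3 above them, and without FFSS replicate 1 the adjusted p was 0.0119, higher in FFSS. The 2 inhibitors higher in FFSS were Cdkn1c, the p57 inhibitor, at 0.287, 0.45 and 0.152 FPKM in P9 and 5.73, 9.98 and 8.11 FPKM in FFSS, and Cdkn1b, the p27 inhibitor, at 17.3, 23.5 and 19 and 29.2, 32.3 and 31.1 FPKM. Lmnb1, the nuclear lamina protein whose loss is widely used as a senescence mark, read 20.8, 23.3 and 22.2 FPKM in P9, 8.62, 0.895 and 4.98 FPKM in FFSS and 18.4, 17.3 and 16.1 FPKM in P3. It was higher in P9 by 2.27 ± 0.48 (SE) (adjusted p = 0.00724), and each P9 library was above each P3 library. Ezh2, the methyltransferase of Polycomb repression, read 16.5, 13.2 and 13.6 FPKM in P9 and 6.97, 2.38 and 3.52 FPKM in FFSS, and H2afz, the histone variant H2A.Z, 261, 291 and 278 and 219.6, 132 and 163 FPKM.

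The p53 list of 25 tested genes held 10 calls higher in FFSS and 3 higher in P9, against 15.8% and 16.8% of all genes. Its medians from P3 were 0.22 in P9 and 0.68 in FFSS. The 10 became 6 without P9 replicate 2 and 4 without FFSS replicate 3. Gadd45a, a DNA damage and stress sensor, read 43.7, 65.3 and 70.8 FPKM in P9 and 262, 394 and 333 FPKM in FFSS, a difference of -2.45 ± 0.20 (SE) (adjusted p = 6.81e-05). Sesn2, a stress-induced inhibitor of mTORC1, read 19.7, 26 and 24.2 FPKM in P9 and 34.2, 115 and 91.3 FPKM in FFSS. Tp53inp1, a p53 cofactor, read 14.5, 12.8 and 8.51 FPKM in P9 and 19.2, 32.4 and 38 FPKM in FFSS, and Xpc, a damage recognition factor, 5.91, 5.78 and 5.55 and 9.79, 11.6 and 10.2 FPKM. Sesn2 in FFSS replicate 1 was near its P3 level of 39, 40.6 and 38.6 FPKM, whereas replicates 2 and 3 were well above it. Toward P9 were Pmaip1, the BH3-only protein NOXA, at 55.9, 45.5 and 33.4 FPKM in P9 and 10.3, 20.1 and 15.6 FPKM in FFSS, and Zmat3, an RNA-binding p53 target, at 25.2, 26.9 and 26.1 and 14.8, 17.2 and 21 FPKM. The call of Zmat3 was lost in the 6 libraries alone (adjusted p = 0.0506). Rrm2b, the p53-induced ribonucleotide reductase subunit, read 4.16, 4.38 and 2.99 FPKM in P9 and 2.51, 1.09 and 1.85 FPKM in FFSS. Its call was lost without P9 replicate 1 or 2 or FFSS replicate 2 or 3, with adjusted p of 0.0649 to 0.0886.

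The contractile apparatus and focal adhesion list, the genes of stress fibres and their anchors, stood on the P9 side. Of 29 tested members, 21 were called higher in P9, against 16.8% of all genes, and 0 higher in FFSS. In the fits without 1 library the 21 ranged from 20 to 23 and the 0 stayed at 0. The median difference was 1.22, with 0.86 from P3 in P9 and -0.27 in FFSS. By role, 5 of 7 actin and thick filament genes, 7 of 10 thin filament regulators and 9 of 12 focal adhesion and linker genes were higher in P9. Acta1, the skeletal muscle alpha-actin, read 42.5, 35.1 and 38.6 FPKM in P9, 0.233, 1.48 and 0.609 FPKM in FFSS and 7.64, 13.8 and 2.45 FPKM in P3. Its difference was 4.54 ± 0.47 (SE) (adjusted p = 0.000216), and the 3 groups did not overlap. Pln, phospholamban, which restrains the calcium pump of the sarcoplasmic reticulum, read 94.7, 89.9 and 51.7 FPKM in P9 and 0.92, 4.32 and 2.15 FPKM in FFSS, a difference of 4.60 ± 0.36 (SE) (adjusted p = 5.96e-05). Lmod1, leiomodin 1, a nucleator of actin filaments in smooth muscle, read 51.7, 85.6 and 75.1 FPKM in P9 and 9.75, 14.2 and 13.8 FPKM in FFSS. Vcl, vinculin, which links integrins to actin, read 365, 252 and 209 FPKM in P9, 75, 75.3 and 84.6 FPKM in FFSS and 110.2, 104 and 117 FPKM in P3. For Vcl the FFSS libraries were a little below P3 and the P9 libraries well above it. Acta2, Tagln and Myh11 were added after their values were seen. Acta2, the smooth muscle actin that marks myofibroblasts, read 4304, 4917 and 3865 FPKM in P9 and 1809, 1163 and 1364 FPKM in FFSS, a difference of 1.61 ± 0.19 (SE) (adjusted p = 0.000402). Tagln, the actin cross-linker transgelin, read 3543, 4265 and 4044 FPKM in P9 and 2777, 1921 and 2136 FPKM in FFSS, and Myh11, the smooth muscle myosin heavy chain, 117, 117 and 68.5 and 3.03, 25.8 and 19.8 FPKM. The adjusted p of Tagln was 0.00789, and its call was lost when no gene was filtered out, with 0.0833 at a pseudocount of 1 and 0.0637 at 0.1.

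Some of the markers of mural cells, mainly those shared with contractile or other lists, moved with this block. The summed level of the 8 vascular smooth muscle and pericyte markers was 247 to 313 FPKM in P9, 46.2 to 93.2 FPKM in FFSS and 123 to 154 FPKM in P3, with the pericyte marker Rgs5 at 0 in all P9 and FFSS libraries and Myh11, Lmod1, Cspg4 and Notch3 shared with other lists here. The listed markers Kcnj8 and Abcc9, also named after their values were seen, were at most 0.0529 and 0.00861 FPKM in these libraries. Of the list's 5 tested members, 4 were called higher in P9, against 16.8% of all genes. Of the 8 skeletal muscle markers 2 were tested, with 1 called each way. They summed to 38.9 to 46.3 FPKM in P9 and 8.63 to 38.7 FPKM in FFSS, with Pax7 at 0 and Myod1, Myog, Myh3 and Ckm below 1 FPKM in every library. In P9 this sum was mostly Acta1, itself a member of the contractile list, and in FFSS mostly Tnnt3, a troponin named after its values were seen, at 8.29, 37 and 25.8 FPKM against 3.27, 3.57 and 5.35 FPKM in P9. The part of other cells in the contractile result was not tested.

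Genes around YAP, the Hippo pathway and serum response factor (SRF), which respond to actin tension, were also called toward P9. The median difference was 0.48. Of 23 tested, 13 were called higher in P9, against 16.8% of all genes, and 0 in FFSS. By role these were 7 of 14 YAP targets, 4 of 6 Hippo pathway effectors and 2 of 3 genes of SRF and its cofactors. The 4 Hippo calls were 1 without P9 replicate 2, P9 replicate 3 or FFSS replicate 3, and the 2 SRF calls were 1 without any one P9 library. Without FFSS replicate 1, 3 were called higher in FFSS, and a fit of the 6 libraries alone called 8 higher in P9. Ankrd1, a YAP target, read 7.83, 6.93 and 9.65 FPKM in P9, 0.302, 0.97 and 0.608 FPKM in FFSS and 0.486, 0.615 and 0.153 FPKM in P3, a difference of 2.50 ± 0.21 (SE) (adjusted p = 8.44e-05). Tgfb2, the ligand transforming growth factor beta 2, read 155, 129 and 127 FPKM in P9 and 30.7, 53.7 and 47.1 FPKM in FFSS. Ajuba, an adaptor that inhibits the Hippo kinases, read 38.7, 43.8 and 48.3 FPKM in P9 and 15.8, 19 and 20.8 FPKM in FFSS, and Mrtfa, the actin-regulated SRF cofactor, 25.3, 23.4 and 24.5 and 12.8, 12.5 and 12.1 FPKM. All 4 lay in FFSS at or near their P3 levels and above them in P9, and none of the groups P9 and FFSS overlapped.

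Because the contractile genes include known SRF targets, their promoters were searched for the CArG box, the element that SRF binds, in the 250 bases before the RefSeq start (build GRCr8). The box was present in 1.5% of 27457 promoters, in 3 of 26 promoters of the contractile list and in 1 of 15 of the YAP, Hippo and SRF list. Among called contractile genes it was found in Acta1 and Cnn2. Acta1 is shown because it had one of the largest differences, with the box in capitals at 94 bases before the start (chr19:68784195-68784444, minus strand, 5′ to 3′ along the gene).
Acta1: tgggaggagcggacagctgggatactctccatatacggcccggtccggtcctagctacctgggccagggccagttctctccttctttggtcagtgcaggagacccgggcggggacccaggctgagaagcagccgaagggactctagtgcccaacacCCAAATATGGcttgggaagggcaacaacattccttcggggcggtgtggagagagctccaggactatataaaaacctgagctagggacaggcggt

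**Figure D3:**
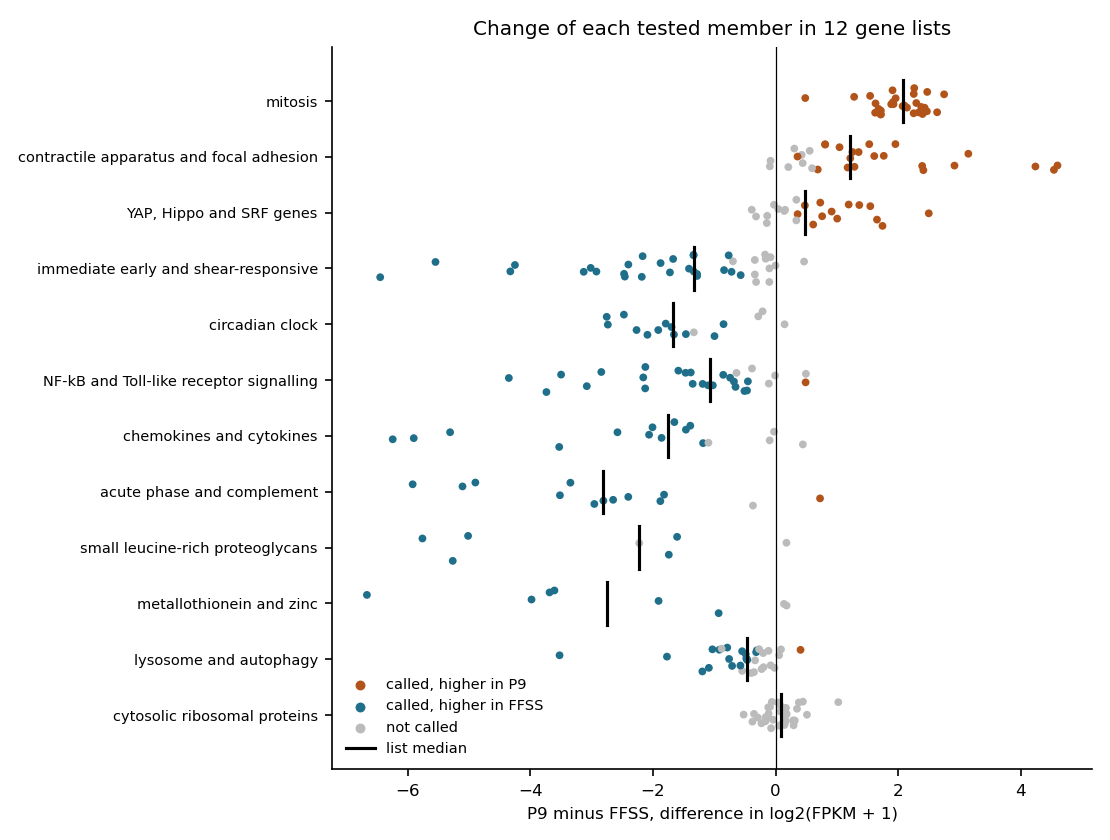
Difference P9 minus FFSS in log2(FPKM + 1) (x axis) for each tested member of 12 gene lists; orange and blue points are called higher in P9 and in FFSS, grey points are not called, and black bars are list medians, from 2.07 for mitosis to -2.81 for acute phase and complement. Points are spread vertically for legibility; the ribosomal proteins lie around 0.

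Immediate early genes marked the FFSS side. Of 36 tested members of the immediate early and shear-responsive list, 25 were called higher in FFSS, against 15.8% of all genes, and 0 higher in P9. The count was 18 to 31 in the fits without 1 library, with 31 without FFSS replicate 1. The median difference was -1.34, with a median from P3 of 0.08 in P9 and 1.37 in FFSS. All 8 subunits of the AP-1 transcription factor were higher in FFSS. Fosb, an AP-1 subunit, read 0.666, 0.912 and 0.91 FPKM in P9, 83.7, 237 and 201 FPKM in FFSS and 0.566, 0.562 and 0.398 FPKM in P3, a difference of -6.45 ± 0.33 (SE) (adjusted p = 6.36e-06). Fos read 3.09, 5.53 and 3.23 FPKM in P9, 154, 302 and 245 FPKM in FFSS and 3.37, 3.83 and 3.5 FPKM in P3, a difference of -5.55 ± 0.26 (SE) (adjusted p = 3.45e-06). Both were near the P3 level in P9, and in FFSS both were lowest in replicate 1. Of 9 genes of the Egr, Nr4a and Ier families, 8 were higher in FFSS, and 5 without P9 replicate 1, P9 replicate 3 or FFSS replicate 3. Nr4a1, an orphan nuclear receptor, read 4.16, 5.05 and 5.79 FPKM in P9 and 99.9, 138 and 122 FPKM in FFSS. Egr1, a zinc finger early response factor named after its values were seen, read 40.4, 60.9 and 31.3 FPKM in P9, 68.3, 286 and 205 FPKM in FFSS and 7.56, 6.12 and 9.85 FPKM in P3, so its P9 level also lay above P3. Its adjusted p was 0.0163, and 0.0514 to 0.0624 without P9 replicate 1, P9 replicate 3 or FFSS replicate 3. Klf4, a flow-responsive Kruppel-like factor, read 10.6, 14.5 and 20.3 FPKM in P9, 134, 140.4 and 134 FPKM in FFSS and 79.1, 72.9 and 88.8 FPKM in P3. Of the 5 tested mechanosensors, 1 was called, and that call was lost without P9 replicate 1 or FFSS replicate 3. The mechanosensor Piezo2, named after its values were seen, missed the filter and was not tested. It lay the opposite way to the list, at 1.73, 1.43 and 0.978 FPKM in P9 and 0.0574, 0.00841 and 0 FPKM in FFSS. In P3 it read 0.178, 0.196 and 0.166 FPKM.

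The circadian clock list followed the same direction. Of 16 tested genes 12 were called higher in FFSS, against 15.8% of all genes, and 0 in P9. The median difference was -1.68, with -0.29 from P3 in P9 and 1.40 in FFSS. Npas2, a partner of BMAL1, read 2.08, 2.36 and 2.97 FPKM in P9 and 17.4, 25.9 and 23.6 FPKM in FFSS, a difference of -2.74 ± 0.18 (SE) (adjusted p = 1.94e-05). Nr1d2, the repressor REV-ERB beta, read 4.63, 4.14 and 3.64 FPKM in P9 and 13, 20.2 and 17.8 FPKM in FFSS. Bhlhe41, the repressor DEC2, read 5.96, 13.2 and 13.7 FPKM in P9 and 54.7, 45.7 and 61.8 FPKM in FFSS, and Per2 2.55, 1.93 and 3.18 and 6.76, 12.6 and 11.9 FPKM. Per1, named after its values were seen, was not called, at 6.86, 8.47 and 9.83 FPKM in P9 and 7.45, 45.1 and 32.1 FPKM in FFSS (adjusted p = 0.0785), since FFSS replicate 1 lay among the P9 libraries. Without that library its adjusted p was 8.34e-05. The labels give no time of day or interval from medium change to harvest, and the part of either in this list was not tested.

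NF-kB and Toll-like receptor signalling genes were higher in FFSS in 22 of 28 tested members, against 15.8% of all genes. The median difference was -1.06, with medians from P3 of -0.17 in P9 and 0.77 in FFSS. The count was 18 to 22 in the fits without 1 library. The 4 members with the smallest p-values toward FFSS were Nfkbiz, Nfkbia, Tnfaip3 and Relb. Nfkbiz, the nuclear coregulator IkB zeta, read 1.5, 1.38 and 1.59 FPKM in P9, 44.2, 55 and 50.8 FPKM in FFSS and 2.56, 1.88 and 3.06 FPKM in P3, a difference of -4.35 ± 0.15 (SE) (adjusted p = 1.22e-06). Nfkbia, the inhibitor IkB alpha, read 7.87, 7.96 and 9.53 FPKM in P9 and 72.9, 81.9 and 81.7 FPKM in FFSS, a difference of -3.08 ± 0.12 (SE) (adjusted p = 1.86e-06). Tnfaip3, the deubiquitinase A20, read 1.38, 1.15 and 1.27 FPKM in P9 and 15.2, 14.2 and 16.5 FPKM in FFSS. Relb, a factor of the non-canonical pathway, read 4.14, 4.47 and 3.9 FPKM in P9 and 27.2, 19.4 and 19 FPKM in FFSS. In these 4 genes each FFSS library, replicate 1 included, exceeded each P9 library. The single member called toward P9 was Irak4, a kinase of the receptor complex, at 5.52, 5.75 and 4.54 FPKM in P9 and 4.17, 3.61 and 2.7 FPKM in FFSS; its call was lost in 8 of the 9 fits without 1 library.

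Chemokines and cytokines were called higher in FFSS in 12 of 16 tested members, against 15.8% of all genes, and higher in P9 in 0. The median difference was -1.76. A further 17 of the 33 listed genes did not reach 1 FPKM in 3 of the 6 libraries. Of these, Cxcl6, Cxcl3, Csf3 and Il1rn were above 1 FPKM in FFSS replicates 1 and 3 and below it in FFSS replicate 2 and in P9. Cxcl6, a neutrophil chemokine named after its values were seen, was at 0 in all P9 libraries and at 92.4, 0.55 and 36.1 FPKM in FFSS, and was not tested. Cxcl1, a neutrophil chemokine (chromosome 14, 18743685 to 18745457), read 2.77, 5.1 and 8.15 FPKM in P9, 570.2, 396 and 405 FPKM in FFSS and 27.1, 26 and 32.6 FPKM in P3, a difference of -6.25 ± 0.29 (SE) (adjusted p = 3.45e-06). The P9 libraries lay below P3 and the FFSS libraries above it, with no overlap among the groups. Ccl2, a monocyte chemokine, read 16.7, 11.9 and 20.5 FPKM in P9 and 891, 1250.2 and 946 FPKM in FFSS, a difference of -5.90 ± 0.24 (SE) (adjusted p = 1.86e-06). Ccl20, which attracts lymphocytes and dendritic cells, read 0.0932, 0.25 and 0.393 FPKM in P9 and 117, 17.9 and 52.3 FPKM in FFSS, with replicate 1 highest. Cxcl16 read 1.89, 2.15 and 2.07 FPKM in P9 and 21.1, 13.8 and 17.4 FPKM in FFSS. Il6, the cytokine most often cited in the secretory phenotype of senescent cells, read 4.0, 2.89 and 1.89 FPKM in P9, 12.6, 18.9 and 12.6 FPKM in FFSS and 1.14, 2.01 and 1.04 FPKM in P3. It differed by -2.01 ± 0.25 (SE) (adjusted p = 0.00062), and all 3 FFSS libraries exceeded all P9 libraries.

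The NF-kB-like site, a decamer beginning with GGGA and ending with CC on either strand, was found in the 250 bases before the start of 16.8% of the 27457 promoters. It was found in 11 of 26 promoters of the NF-kB list and 11 of 24 of the chemokine list. Of the called members it was present in 9 of 20 and 7 of 9. Cxcl1 and Nfkbiz are shown as the called chemokine and the called regulator with the largest differences in their lists, with the matching bases in capitals; in Cxcl1 a pair of overlapping matches forms the longer run. Cxcl1 is at chr14:17479322-17479571 on the minus strand and Nfkbiz at chr11:58251471-58251720 on the plus strand (GRCr8).
Cxcl1: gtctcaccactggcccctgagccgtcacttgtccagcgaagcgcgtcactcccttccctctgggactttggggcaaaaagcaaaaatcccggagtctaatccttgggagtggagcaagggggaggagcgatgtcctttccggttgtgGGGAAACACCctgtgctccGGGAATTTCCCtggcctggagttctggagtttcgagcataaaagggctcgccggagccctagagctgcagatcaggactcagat
Nfkbiz: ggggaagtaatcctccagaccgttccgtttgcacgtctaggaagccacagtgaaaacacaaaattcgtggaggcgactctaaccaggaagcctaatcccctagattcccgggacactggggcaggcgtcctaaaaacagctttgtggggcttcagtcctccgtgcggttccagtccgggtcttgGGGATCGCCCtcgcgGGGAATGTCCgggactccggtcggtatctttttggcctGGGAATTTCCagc

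Acute phase and complement genes were called higher in FFSS in 11 of 13 tested members, against 15.8% of all genes. The list's share was the largest in that direction among lists with at least 5 tested members. The median difference was -2.81, with medians from P3 of -0.97 in P9 and 1.91 in FFSS. C1r and C1s, the proteases of the first complement component, read 41.8, 44.4 and 38.2 and 1.51, 1.56 and 2.01 FPKM in P9. In FFSS, C1r read 264, 198 and 213 FPKM and C1s 173, 49.9 and 88.9 FPKM. C1s differed by -5.11 ± 0.50 (SE) (adjusted p = 0.000166) and was highest in FFSS replicate 1. C1qtnf1, a secreted relative of complement C1q, read 9.98, 10.3 and 9.39 FPKM in P9 and 50.8, 103 and 81.1 FPKM in FFSS. Pla2g2a, a secreted phospholipase of the acute phase, read 0.345, 0.232 and 4.01 FPKM in P9, 61.5, 64.7 and 52.6 FPKM in FFSS and 42.2, 20.2 and 69.98 FPKM in P3, so that FFSS and P3 overlapped and P9 lay below both. Lcn2, the siderophore-binding lipocalin 2, was named after its values were seen, at 0.0825, 0.148 and 0 FPKM in P9 and 539, 1.78 and 184 FPKM in FFSS. FFSS replicate 2 held only a small part of the level in replicate 1, and the call (adjusted p = 0.0192) was lost without FFSS replicate 3 or any of the P9 libraries and with voom on rebuilt fragments (0.404). Toward P9 was Cd59, the membrane inhibitor of complement lysis, at 101, 79.2 and 78.1 FPKM in P9 and 39.2, 64.1 and 53.9 FPKM in FFSS. Its adjusted p was 0.0219, with 0.0724 without P9 replicate 1 and 0.0546 without FFSS replicate 3.

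Leukocyte markers were at a low level beside these inflammatory genes and higher in some FFSS libraries. The 9 measured leukocyte and macrophage markers summed to 0.560 to 1.16 FPKM in P9 and 3.04 to 13.3 FPKM in FFSS. Ptprc, the pan-leukocyte antigen CD45, was at most 0.0145 FPKM in P9 and 0.0400 FPKM in FFSS, and Adgre1, Cd163 and Cd3e were at 0 in all 6 libraries. The macrophage markers Lyz2 and Csf1r, not tested, were named after their values were seen. Lyz2 was at 0 in P9 and at 0.0562, 5.37 and 2.94 FPKM in FFSS, and Csf1r at 0.0921, 0.0329 and 0.218 FPKM in P9 and 0.0840, 3.17 and 2.08 FPKM in FFSS. Both were thus near their P9 level in FFSS replicate 1 and above it in FFSS replicates 2 and 3. Cd68, a lysosomal protein and the only member tested, read 0.414, 0.423 and 0.848 FPKM in P9 and 2.16, 2.6 and 2.11 FPKM in FFSS. It was called higher in FFSS, a direction fixed by passing the filter through FFSS alone. The part of such cells in the inflammatory differences was not tested.

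Interferon-stimulated and antigen processing genes were called higher in FFSS in 11 of 23 tested members, against 15.8% of all genes, and higher in P9 in 0. The median difference was -0.76. The calls were 6 of 9 antigen processing genes and 5 of 14 interferon-stimulated genes. The latter 5 were 3 without P9 replicate 1 and 9 without FFSS replicate 2. Of untested members, named after their values were seen, Ifit1 read 1.94, 0 and 1.46 FPKM in FFSS, Mx2 2.65, 0 and 0.873, and Ifit3, more evenly, 1.64, 0.94 and 1.09. B2m, the light chain of class I molecules, read 175, 163 and 153 FPKM in P9, 431, 366 and 341 FPKM in FFSS and 196, 205 and 201 FPKM in P3, a difference of -1.20 ± 0.12 (SE) (adjusted p = 0.000149). RT1-A2, a class I heavy chain with close copies among which fragments may be split, read 2.11, 1.77 and 1.96 FPKM in P9 and 18.1, 15.2 and 11 FPKM in FFSS. Tap1, a peptide transporter, read 2.82, 3.3 and 2.8 FPKM in P9 and 7.36, 7.07 and 7.66 FPKM in FFSS. Ifi44, an interferon-induced protein, read 0.45, 0.536 and 0.844 FPKM in P9 and 3.85, 4.16 and 4.01 FPKM in FFSS, a difference of -1.65 ± 0.15 (SE) (adjusted p = 0.000132). In these 4 the P9 libraries were near or below P3 and the FFSS libraries above it. An ISRE-like match, the direct repeat of GAAA with a spacer on either strand that interferon regulatory factors bind, stood in 18 of 28 promoters of this list and in 3.29% of all 27457. Ifi44, the called gene with the smallest p-value, is shown with its match in capitals (GRCr8, chr2:243303841-243304090, minus strand).
Ifi44: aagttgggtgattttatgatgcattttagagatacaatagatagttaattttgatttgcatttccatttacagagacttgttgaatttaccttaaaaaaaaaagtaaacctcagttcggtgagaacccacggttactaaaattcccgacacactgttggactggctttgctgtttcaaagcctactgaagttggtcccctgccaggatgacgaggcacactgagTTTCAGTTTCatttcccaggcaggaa

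Metallothionein and zinc genes were called higher in FFSS in 6 of 8 tested members, against 15.8% of all genes. The count stayed at 6 in each of the 9 fits without 1 library. The median difference was -2.76, with -0.58 from P3 in P9 and 1.69 in FFSS. Mt2A, a metal-binding metallothionein (chromosome 19, 11307967 to 11308740, Rnor_6.0), read 21.9, 24.9 and 22.4 FPKM in P9, 2277, 3017 and 2114 FPKM in FFSS and 92.1, 73.9 and 103 FPKM in P3. Its difference of -6.67 ± 0.17 (SE) had the smallest adjusted p of the genes named here (2.76e-07), with P9 below and FFSS above P3. Mt1, placed by the deposited table on chromosome 17 (78793336 to 78793724), read 8.1, 8.26 and 9.38 FPKM in P9 and 214, 119 and 133 FPKM in FFSS, a difference of -3.98 ± 0.24 (SE) (adjusted p = 1.34e-05). Fragments may be shared between metallothionein copies. Slc39a8, the zinc importer ZIP8, read 1.54, 1.36 and 2.18 FPKM in P9 and 39.5, 30.05 and 31.3 FPKM in FFSS. Slc39a14, the importer ZIP14, read 19.8, 16.5 and 17.2 FPKM in P9, 70.3, 66.3 and 71.9 FPKM in FFSS and 58.6, 49.9 and 65.8 FPKM in P3. For Slc39a14 the gap came mainly from P9, below P3, while for Slc39a8 it came mainly from FFSS, above P3.

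A form of the core of the metal response element, TGCGCNC on either strand, stood in the 250 bases before the start of 6 of 8 promoters of this list and in 12.7% of all 27457. Other forms of the core were not searched. The Mt2A promoter is shown because this gene has the list's largest difference, with its 2 matches in capitals (GRCr8, chr19:10838709-10838958, minus strand). RefSeq places Mt1 on chromosome 19, not on the chromosome of the measured locus, so no promoter of it is counted or shown.
Mt2A: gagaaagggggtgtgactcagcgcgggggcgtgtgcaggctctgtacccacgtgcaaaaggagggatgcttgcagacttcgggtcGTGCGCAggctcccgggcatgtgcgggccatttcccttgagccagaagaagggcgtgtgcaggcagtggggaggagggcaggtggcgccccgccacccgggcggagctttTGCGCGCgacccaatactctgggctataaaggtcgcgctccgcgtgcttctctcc

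**Figure D4:**
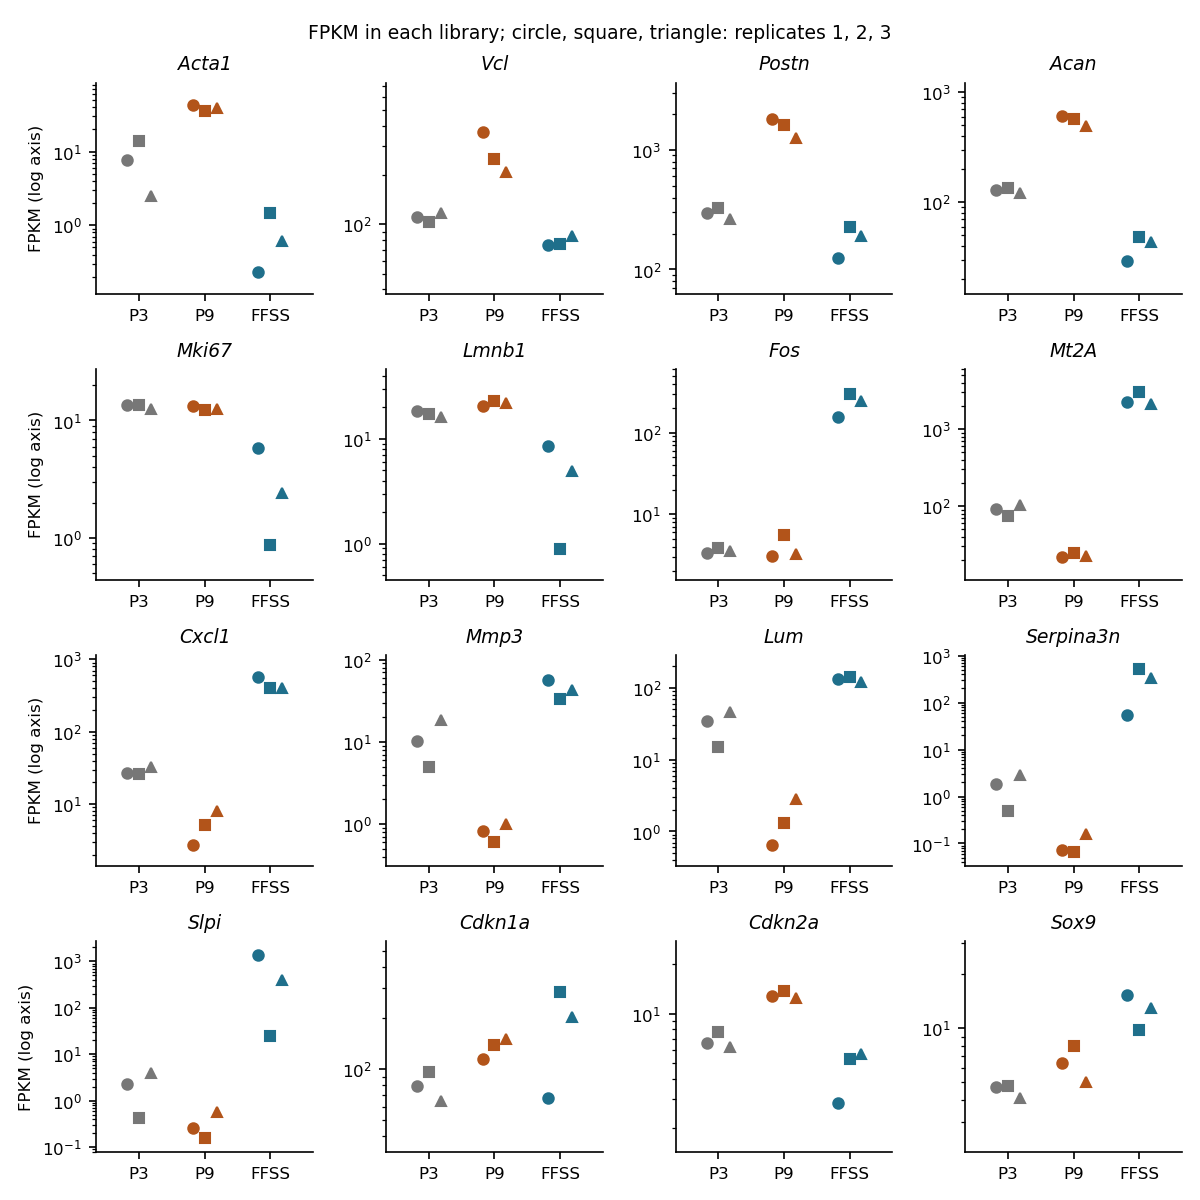
FPKM (log axis) of 16 named genes in each library of P3 (grey), P9 (orange) and FFSS (blue); circles, squares and triangles are replicates 1, 2 and 3. Acta1, Vcl, Postn and Acan are highest in P9, Mki67 and Lmnb1 are low in FFSS alone, and Fos, Mt2A, Cxcl1, Mmp3, Lum, Serpina3n and Slpi are highest in FFSS.

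Cartilage genes split, with the main proteoglycan going one way and most others the opposite way. Of 17 tested members of the cartilage list, 1 was higher in P9 and 9 were higher in FFSS, against 16.8% and 15.8% of all genes. The median difference was -1.05. The 1 was Acan, aggrecan (chromosome 1, 140762758 to 140824441), at 609, 576 and 499 FPKM in P9, 29.3, 48.2 and 43.2 FPKM in FFSS and 128, 135 and 122 FPKM in P3. It differed by 3.80 ± 0.18 (SE) (adjusted p = 3.45e-06), with P9 above and FFSS below P3 and no overlap among the groups. Sox9, the master factor of chondrogenesis, went toward FFSS, at 6.37, 8.0 and 5.01 FPKM in P9, 15.3, 9.81 and 13 FPKM in FFSS and 4.72, 4.79 and 4.06 FPKM in P3. Its difference was -0.88 ± 0.19 (SE) (adjusted p = 0.0089), and the P9 libraries, too, were above P3. Sox6 read 0.947, 1.21 and 1.7 FPKM in P9 and 9.57, 7.58 and 9.43 FPKM in FFSS, and Sox5 0.212, 0.0946 and 0.107 and 1.99, 2.65 and 2.16 FPKM. Hapln1, the link protein that ties aggrecan to hyaluronan, read 0.778, 0.40 and 0.511 FPKM in P9 and 6.53, 8.73 and 8.56 FPKM in FFSS. Matn4, a matrilin, read 1.31, 1.23 and 1.38 FPKM in P9 and 14, 4.97 and 8.66 FPKM in FFSS. Col2a1, the collagen that defines hyaline cartilage, was below the level tested, with at most 0.191 FPKM in P9 and 0.378 FPKM in FFSS. Of the 9 chondrocyte markers, the summed level of 508 to 617 FPKM in P9 and 54.1 to 79.7 FPKM in FFSS was therefore mostly Acan.

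Small leucine-rich proteoglycans, which bind collagen fibrils and set their diameter, had the opposite pattern to aggrecan. Of 7 tested, 5 were called higher in FFSS, against 15.8% of all genes, and 0 in P9. The median difference was -2.22, with -1.24 from P3 in P9 and 1.80 in FFSS. Fmod, fibromodulin, read 34.4, 39.6 and 143 FPKM in P9, 1559.8, 2289 and 1968 FPKM in FFSS and 1129.8, 983 and 1249 FPKM in P3, a difference of -5.02 ± 0.46 (SE) (adjusted p = 0.000121). Lum, lumican (chromosome 7, 38819771 to 38826862), read 0.655, 1.3 and 2.86 FPKM in P9, 134, 142 and 120.5 FPKM in FFSS and 34.9, 15.2 and 46.7 FPKM in P3, a difference of -5.76 ± 0.40 (SE) (adjusted p = 2.94e-05). For both, P9 replicate 3 was the highest P9 library, and P3 lay between the models without overlap. Dcn, decorin, read 1.06, 1.51 and 3.82 FPKM in P9 and 250.04, 47.7 and 116 FPKM in FFSS, and Prelp 124, 112 and 90.1 and 177, 517 and 392 FPKM.

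Fibrillar collagens and fibrous matrix genes were divided by role. Of 40 tested, 9 were higher in P9 and 11 higher in FFSS, against 16.8% and 15.8% of all genes. The 11 became 19 without FFSS replicate 1. Of 11 tested collagens, 3 were higher in FFSS, or 6 without FFSS replicate 1. In P9 0 collagens were higher, or 1 without P9 replicate 1 or FFSS replicate 1. The collagen medians from P3 were -0.80 in P9 and -0.56 in FFSS. Of 16 elastic fibre and adhesive glycoproteins, 8 were higher in P9 and 2 in FFSS, or 4 without FFSS replicate 1. Of 13 cross-linking and processing enzymes, 6 were higher in FFSS and 1 in P9, or 0 without P3 replicate 1 or any one P9 library. Postn, periostin, read 1817, 1626 and 1262 FPKM in P9, 125, 226 and 191 FPKM in FFSS and 297, 329.5 and 267 FPKM in P3, a difference of 3.14 ± 0.23 (SE) (adjusted p = 3.31e-05). Fbn1, the microfibril protein fibrillin 1, read 245, 185 and 152 FPKM in P9 and 54.8, 38.9 and 51.3 FPKM in FFSS. Fn1, fibronectin, read 3562, 3327 and 3237 FPKM in P9 and 1431, 845 and 1127 FPKM in FFSS, and Fbln2, fibulin 2, 591, 674 and 591 and 310.4, 166 and 228 FPKM. For Postn, Fbn1 and Fn1 the P9 libraries were above P3 and the FFSS libraries below it. Toward FFSS were Thbs2, thrombospondin 2, at 38, 39.9 and 61.3 FPKM in P9, 687, 951 and 902 FPKM in FFSS and 427, 396 and 458 FPKM in P3, and Lox, the collagen cross-linking oxidase, at 349, 303 and 407 and 1017, 1034 and 1065 FPKM. Col12a1, a fibril-associated collagen, read 143, 124 and 194 FPKM in P9, 669, 701 and 802 FPKM in FFSS and 1073, 1041 and 1072 FPKM in P3, so both models lay below P3 and P9 further. Col1a1, the main collagen of fibrocartilage, named after its values were seen, did not differ beyond its error, at 4510.2, 5122 and 4781 FPKM in P9 and 4988, 3804 and 4452 FPKM in FFSS (difference 0.13 ± 0.16 (SE), adjusted p = 0.566), and both were below its P3 level of 9759, 10290.4 and 9283 FPKM.

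Basement membrane genes leaned toward P9, with 5 of 14 higher there against 16.8% of all genes, or 8 without FFSS replicate 1. The 2 higher in FFSS were near the 15.8% of all genes in that direction. Lama5, a laminin alpha chain, read 22.1, 19.1 and 13.6 FPKM in P9, 0.272, 0.303 and 0.119 FPKM in FFSS and 0.993, 1.93 and 0.401 FPKM in P3, a difference of 3.94 ± 0.27 (SE) (adjusted p = 2.89e-05). Nid1, nidogen 1, read 314, 277 and 218 FPKM in P9 and 119, 66.5 and 87.7 FPKM in FFSS, and Col18a1 23.4, 35.6 and 14.7 and 10.3, 2.44 and 4.15 FPKM. Col15a1 read 5.89, 11.7 and 5.7 FPKM in P9, 0.837, 0.423 and 0.583 FPKM in FFSS and 5.35, 5.63 and 6.03 FPKM in P3, so its gap came from FFSS. The laminin chains Lama2 and Lama4 made up the 2 calls toward FFSS, at adjusted p of 0.0366 and 0.0325. The 2 were 0 without any 1 of the P3 libraries, P9 replicate 2 or FFSS replicate 3, and 1 without P9 replicate 1, P9 replicate 3 or FFSS replicate 1.

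Of 32 tested matrix-degrading proteases and their inhibitors, 12 were higher in FFSS, against 15.8% of all genes, 3 were higher in P9 and 17 were not called. The 6 tested inhibitors gave 2 of the 12, or 4 without FFSS replicate 1, and 1 of the 3. Mmp3, stromelysin 1, read 0.816, 0.614 and 1.01 FPKM in P9, 56.4, 33 and 42.3 FPKM in FFSS and 10.4, 4.97 and 18.6 FPKM in P3, a difference of -4.60 ± 0.38 (SE) (adjusted p = 7.08e-05). Mmp13, the collagenase most tied to cartilage breakdown, read 0.0845, 0.101 and 0.166 FPKM in P9 and 3.65, 17.8 and 14.7 FPKM in FFSS, a difference of -3.32 ± 0.46 (SE) (adjusted p = 0.000999). It was lowest in FFSS replicate 1. Mmp13 passed the filter through FFSS alone, so its direction and the lack of overlap with P9 were fixed in advance. Mmp2, gelatinase A, read 489, 495 and 431 FPKM in P9 and 1999.9, 1539 and 1648 FPKM in FFSS, and Ctsd, the lysosomal protease cathepsin D, 282, 362 and 365 and 746, 830.2 and 725 FPKM. Toward P9 were Adamts12, at 16.1, 12.1 and 9.09 FPKM in P9 and 4.68, 6.64 and 6.89 FPKM in FFSS, and Adamts1, at 70.6, 68.5 and 74.7 and 53.9, 32.1 and 44.6 FPKM. The third, Serpine2, an inhibitor of thrombin and plasmin, lost its call without P9 replicate 1 or 2 or FFSS replicate 2 or 3.

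Identity genes of the mesenchyme had calls in both directions. Osteogenic and hypertrophic genes had 5 of 14 higher in each group, against 16.8% of all genes in P9 and 15.8% in FFSS. The 5 in FFSS became 8 without FFSS replicate 1. The homeobox factors Dlx5, at 15.9, 20.5 and 20.2 FPKM in P9 and 6.35, 8.89 and 7.31 FPKM in FFSS, and Msx1, at 13.3, 19.3 and 20.9 and 5.22, 7.79 and 4.53 FPKM, were higher in P9. The Runt factors went the opposite way: Runx1 read 13.3, 18.2 and 17.8 FPKM in P9 and 34.7, 31.4 and 34.2 FPKM in FFSS, Runx2 8.75, 8.29 and 7.8 and 11.2, 16.6 and 14.3 FPKM, and Runx3 1.85, 2.19 and 2.62 and 5.65, 8.09 and 7.17 FPKM. Enpp1, which makes the mineralisation inhibitor pyrophosphate, and Mef2c, a hypertrophy factor, were higher in P9, by 1.24 ± 0.14 (SE) and 1.48 ± 0.28 (SE). Pth1r, the receptor for parathyroid hormone-related peptide, was higher in FFSS and differed by -1.18 ± 0.17 (SE). Mesenchymal transcription factors had 5 of 21 higher in P9, against 16.8% of all genes. Another 5 were higher in FFSS, against 15.8% of all genes, a count of 3 without any one P3 or P9 library and 2 without FFSS replicate 3. Beside Osr1, Nr2f2, Meox2 and Gata6 were higher in P9, and Gata6 read 5.4, 4.8 and 5.19 FPKM in P9 and 1.58, 0.127 and 0.78 FPKM in FFSS. Pax9, a factor of jaw and tooth mesenchyme, read 2.31, 1.61 and 2.43 FPKM in P9 and 8.35, 31 and 26.1 FPKM in FFSS, and Tbx3 9.19, 9.57 and 9.36 and 18.7, 19.3 and 22.4 FPKM, both higher in FFSS. Alx4 and Tbx15 were also called toward FFSS, with adjusted p above 0.05 for Alx4 without FFSS replicate 3 (0.0596) and for Tbx15 in 8 of the 9 fits without 1 library.

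Surface markers of mesenchymal progenitors gave 3 of 12 tested members higher in P9 and 5 higher in FFSS, against 16.8% and 15.8% of all genes. Cspg4, the proteoglycan NG2, read 80.6, 70.4 and 71.7 FPKM in P9, 25.7, 21.2 and 25.3 FPKM in FFSS and 79.9, 74 and 77.1 FPKM in P3, so its gap came from FFSS. Mcam, CD146, read 48.3, 38 and 33.2 FPKM in P9 and 4.84, 7.52 and 6.42 FPKM in FFSS, a difference of 2.49 ± 0.23 (SE) (adjusted p = 0.000115). Notch1 read 1.71, 1.69 and 1.04 FPKM in P9 and 0.225, 0.331 and 0.283 FPKM in FFSS. On the other side, Pdgfra, a receptor for platelet-derived growth factor, read 11.2, 9.28 and 8.32 FPKM in P9 and 46.1, 26.8 and 34.9 FPKM in FFSS, Eng, endoglin or CD105, 23.3, 28.3 and 35.7 and 73, 121 and 99.2 FPKM, and Pdgfrb 111, 103 and 92.3 and 148, 186 and 191 FPKM. Cdh11, the mesenchymal cadherin, read 31.9, 29.4 and 27.1 FPKM in P9 and 45.8, 47.3 and 48 FPKM in FFSS. Synovial and tendon fibroblast markers, 8 genes, summed to 235 to 297 FPKM in P9, 414 to 453 FPKM in FFSS and 308 to 424 FPKM in P3. Of 6 tested, 4 were called higher in FFSS, and 2 without P9 replicate 1, P9 replicate 2 or FFSS replicate 3. The tendon genes Tnmd, at 0, 0.0492 and 0.0464 FPKM in P9 and 12.5, 7.26 and 7.47 FPKM in FFSS, and Scx, at 27.9, 53.7 and 84.9 and 87.4, 218 and 175 FPKM, were among them and were named after their values were seen. The call of Scx (adjusted p = 0.0244) was lost without P9 replicate 1, P9 replicate 2, FFSS replicate 2 or FFSS replicate 3 (0.0591 to 0.0802) and in the 6 libraries alone (0.0572). Their part in the proteoglycan and matrix differences was not tested.

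Growth factor pathways differed in their parts. For the list of TGF-beta and bone morphogenetic protein (BMP) signalling, 9 of 34 tested members were higher in P9 and 12 higher in FFSS. Over all genes the shares were 16.8% and 15.8%. The 12 became 7 without P9 replicate 1 or FFSS replicate 3. Among secreted modulators, Bmper, a BMP-binding protein at 14.5, 12.7 and 12.2 FPKM in P9 and 1.87, 3.37 and 2.33 FPKM in FFSS, was higher in P9, and Chrd, chordin, at 3.16, 3.39 and 4.41 and 10.9, 7.25 and 8.01 FPKM, in FFSS. The BMP target Id3 read 323, 351 and 359 FPKM in P9, 151, 157 and 141 FPKM in FFSS and 145, 183 and 115 FPKM in P3, a difference of 1.20 ± 0.16 (SE) (adjusted p = 0.000836). The receptors Tgfbr2, at 34.1, 35.6 and 38 FPKM in P9 and 108, 66.4 and 93.5 FPKM in FFSS, and Tgfbr3, at 3.82, 3.19 and 3.39 and 10.8, 18.1 and 17.3 FPKM, were higher in FFSS. Gdf5, the joint-forming BMP family ligand, was at 0 in all 3 P9 libraries and read 2.29, 1.43 and 1.31 FPKM in FFSS. It passed the filter through FFSS alone, which fixed the direction of its call.

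Wnt genes were called higher in FFSS in 8 of 15 tested members and higher in P9 in 1, against 15.8% and 16.8% of all genes. The 1 became 2 without FFSS replicate 1. Sfrp2, a secreted Wnt modulator, read 1.06, 1.82 and 5.73 FPKM in P9, 248, 108 and 155 FPKM in FFSS and 49, 17.7 and 73.8 FPKM in P3, a difference of -5.57 ± 0.58 (SE) (adjusted p = 0.000226). The receptor Fzd4 read 2.31, 2.03 and 2.6 FPKM in P9 and 9.08, 10.3 and 10.1 FPKM in FFSS, and the ligand Wnt5b 0.285, 0.255 and 1.25 and 3.38, 11.6 and 9.2 FPKM. Wif1, a secreted Wnt inhibitor, differed by -1.10 ± 0.16 (SE) toward FFSS. The 1 toward P9 was Lef1, a nuclear effector, at 1.56, 1.86 and 1.94 FPKM in P9 and 1.06, 0.479 and 0.757 FPKM in FFSS, with P3 above both at 3.59, 3.46 and 3.57 FPKM, and its call was lost in the 6 libraries alone (adjusted p = 0.0567). IGF axis genes were higher in FFSS in 8 of 15 and higher in P9 in 1, against 15.8% and 16.8% of all genes. The 8 became 5 without P9 replicate 1 and 4 without FFSS replicate 3. Igf1, insulin-like growth factor 1, read 9.22, 8.79 and 17.6 FPKM in P9 and 88.9, 90.5 and 106 FPKM in FFSS, a difference of -2.96 ± 0.25 (SE) (adjusted p = 8.44e-05). Its receptor Igf1r went the opposite way, at 47.3, 36.4 and 35.5 FPKM in P9 and 21.7, 14.1 and 18.2 FPKM in FFSS. Pappa1, a protease that frees IGF from binding proteins, and Stc2, its inhibitor, were both higher in FFSS, by differences of -2.07 ± 0.14 (SE) and -1.78 ± 0.22 (SE), and Igf2 read 0.26, 0.337 and 0.307 FPKM in P9 and 1.62, 4.02 and 3.11 FPKM in FFSS.

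FGF, EGF and Notch genes had 10 of 26 higher in P9 and 5 higher in FFSS, against 16.8% and 15.8% of all genes. The 5 in FFSS were near that share. The 10 in P9 became 6 without P9 replicate 3 and 5, also near the share of all genes, without FFSS replicate 3. Of 6 tested Notch genes, 4 were higher in P9 and 0 in FFSS, where leaving out FFSS replicate 1 or 2 gave 1. The ligand Jag1 read 58.4, 47.1 and 33.1 FPKM in P9, 5.15, 16.5 and 11.8 FPKM in FFSS and 9.48, 10.5 and 7.86 FPKM in P3, a difference of 2.05 ± 0.36 (SE) (adjusted p = 0.00298). The receptor Notch3 read 2.68, 2.48 and 1.2 FPKM in P9 and 0.0274, 0.131 and 0.0736 FPKM in FFSS, and the target Hey1 3.36, 3.0 and 3.29 and 0, 0.292 and 0 FPKM. Nrg1, an EGF family ligand, read 9.13, 8.35 and 7.6 FPKM in P9 and 1.66, 1.09 and 1.27 FPKM in FFSS. The receptor Fgfr1 went toward FFSS, at 15.6, 14.4 and 27.6 FPKM in P9, 161, 215 and 206 FPKM in FFSS and 139, 121 and 143 FPKM in P3, so P9 was the group farther from the P3 level. The ligand Fgf7 read 25.1, 28.5 and 57.2 FPKM in P9 and 287, 103 and 162 FPKM in FFSS, the ligand Ereg 0.245, 0.0625 and 0.147 and 2.33, 2.85 and 2.18 FPKM, and the feedback inhibitor Spry1 2.85, 3.61 and 3.4 and 6.63, 9.78 and 10.9 FPKM.

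Organelle and stress programs separated the models by smaller amounts. Lysosome and autophagy genes were higher in FFSS in 17 of 32, against 15.8% of all genes. All but 2 of the 17 were among the 22 lysosomal genes, and the list's median difference was -0.47. Ctsh, cathepsin H, read 49.8, 55.2 and 58.3 FPKM in P9, 552, 779.9 and 597 FPKM in FFSS and 133, 141 and 146 FPKM in P3, a difference of -3.52 ± 0.14 (SE) (adjusted p = 1.86e-06). Lamp1, a lysosomal membrane protein, read 247, 273 and 266 FPKM in P9 and 399, 525 and 444 FPKM in FFSS, and Hexa, a hexosaminidase subunit, 107, 119 and 104 and 160.04, 205 and 179 FPKM. The 1 gene toward P9 was Atg7, an autophagy enzyme, whose call was lost without P9 replicate 2 or 3 or FFSS replicate 2 or 3. Unfolded protein response genes were higher in FFSS in 11 of 21, against 15.8% of all genes. The 11 became 7 without P9 replicate 3 and 6 without FFSS replicate 3. Hspa5, the chaperone BiP, read 372, 323 and 294 FPKM in P9, 486, 513 and 466 FPKM in FFSS and 569.6, 541 and 584 FPKM in P3, so the P9 libraries were lowest and FFSS no higher than P3. Sdf2l1 read 21.3, 24.7 and 25.9 FPKM in P9 and 54.9, 36.5 and 43.3 FPKM in FFSS, and the cochaperones Dnajc3 and Dnajb11 differed by -0.67 ± 0.12 (SE) and -0.56 ± 0.12 (SE).

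Heat shock genes had 6 of 21 higher in FFSS, against 15.8% of all genes, or 2, below that share, without FFSS replicate 3. The 2 higher in P9 were below the 16.8% of all genes in that direction. Hspa1b, an inducible HSP70 with a near-identical copy, read 7.1, 6.54 and 4.69 FPKM in P9 and 10.6, 63.1 and 39.4 FPKM in FFSS, with an adjusted p of 0.0142 that became 0.0556 without FFSS replicate 3. Dnajb1, its cochaperone, read 35.3, 42.3 and 44.6 FPKM in P9 and 59.6, 120.3 and 91.9 FPKM in FFSS, and Dnaja1 74.9, 74.3 and 75.7 and 94.5, 112 and 98.7 FPKM. The call of Dnaja1 was lost in the 6 libraries alone (adjusted p = 0.0528). Bag3, a cochaperone of HSP70, read 30.8, 44.8 and 55 FPKM in P9 and 64.8, 74.3 and 72.5 FPKM in FFSS (adjusted p = 0.0184, and 0.0608 without FFSS replicate 3). The 2 toward P9, Hsp90ab1 and Hspa4, differed by 0.42 ± 0.12 (SE) and 0.32 ± 0.10 (SE). Hsp90ab1 lost its call in 7 of the 9 fits without 1 library and Hspa4 in 8, and the list's count toward P9 was 0 to 3 in these fits. The inverted GAA core of the heat shock element stood in 10 of 16 promoters of this list and in 7.02% of all 27457.

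Genes of the ATF4 amino acid response were called in both directions. Of 40 tested genes 8 were higher in P9, close to the 16.8% of all genes, and 5 without P9 replicate 2 or FFSS replicate 3. Another 11 were higher in FFSS, against 15.8% of all genes. Of 13 tRNA charging enzymes, 5 were higher in P9 and 0 in FFSS, and the 5 were 3 without P3 replicate 1, P9 replicate 1, P9 replicate 2 or FFSS replicate 3. Wars and Gars, the tryptophanyl and glycyl enzymes, read 41.3, 34.8 and 33 and 130.4, 131 and 110.4 FPKM in P9. In FFSS, Wars read 24.5, 22.1 and 20.7 FPKM and Gars 87.6, 89.4 and 81 FPKM. Of 19 amino acid synthesis and transport genes, 3 were higher in P9 and 7 in FFSS, against 16.8% and 15.8% of all genes. The 3 were thus no more than the share of all genes. The synthesis enzymes Asns, at 57.4, 55.3 and 46.9 FPKM in P9 and 35.7, 35.2 and 34.1 FPKM in FFSS, and Psat1, at 32.7, 29.5 and 25 and 17.3, 13.9 and 16.4 FPKM, were also higher in P9. Among the calls toward FFSS were transporters. Slc3a2, the shared heavy chain, read 137, 136 and 135 FPKM in P9 and 215, 215 and 200.2 FPKM in FFSS, Slc7a5 54.2, 48.3 and 47.5 and 70.2, 79.1 and 77.5 FPKM, and Slc6a9, a glycine transporter, 5.62, 7.34 and 6.02 and 13, 29.6 and 24.8 FPKM. Slc7a11, the cystine importer, read 0.997, 1.08 and 0.96 FPKM in P9 and 2.41, 2.45 and 2.84 FPKM in FFSS. Asns, Psat1 and Wars were in FFSS well below their P3 levels of 66.2, 71 and 64.7, 37.1, 37.5 and 41.7 and 44, 44.6 and 46.1 FPKM, respectively. The composite element of ATF4 and C/EBP, TGATG followed by a spacer base and AA on either strand, stood in 5 of 26 promoters of the list and in 3.25% of all.

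NRF2 and antioxidant genes had 6 of 25 higher in FFSS, against 15.8% of all genes. Gpx3, the secreted glutathione peroxidase, read 141, 140.4 and 247 FPKM in P9, 2309, 3560.02 and 2826 FPKM in FFSS and 615, 565 and 670.3 FPKM in P3, a difference of -4.06 ± 0.24 (SE) (adjusted p = 1.34e-05). Hmox1, haem oxygenase 1, read 45.5, 58.5 and 136 FPKM in P9, 369.8, 796 and 609.7 FPKM in FFSS and 449.8, 622 and 331 FPKM in P3. For Hmox1 the FFSS and P3 libraries overlapped, and P9 lay below both. Osgin1 read 0.532, 0.565 and 1.07 FPKM in P9 and 3.33, 7.03 and 4.73 FPKM in FFSS. The 1 call toward P9, Gstp1, was lost in 8 of the 9 fits without 1 library, and without FFSS replicate 1 there were 3. Prostaglandin synthesis had 4 of 10 higher in FFSS and 2 in P9, against 15.8% and 16.8% of all genes. Ptges, the inducible prostaglandin E synthase, read 0.409, 0.261 and 0.74 FPKM in P9 and 62.4, 23.5 and 41.1 FPKM in FFSS, a difference of -4.79 ± 0.31 (SE) (adjusted p = 2.09e-05). Ptgs1, the constitutive cyclooxygenase, was higher in P9, at 72.3, 64.2 and 74.8 FPKM against 27, 42.3 and 31.3 FPKM in FFSS. Ptgs2, the inducible cyclooxygenase, named after its values were seen, was not called, at 28.6, 19.3 and 23.9 FPKM in P9 and 24.8, 72.2 and 59.3 FPKM in FFSS (adjusted p = 0.0569), and reached 0.000444 without FFSS replicate 1. The receptor Ptger4 read 0.946, 1.16 and 1.13 FPKM in P9 and 11.7, 6.57 and 6.35 FPKM in FFSS, and Hpgd, which degrades prostaglandins, 0, 0 and 0.0369 and 1.87, 1.27 and 1.28 FPKM. Pla2g4a in P9 and Ptges2 in FFSS were also called: the first call was lost in 8 of the 9 fits without 1 library, and the second without P9 replicate 1, P9 replicate 2 or FFSS replicate 3.

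Lipid genes were called more often toward FFSS than toward P9. Cholesterol synthesis had 9 of 27 higher in FFSS, against 15.8% of all genes, and 0 in P9. The 9 became 5 without P9 replicate 3 and 4 without FFSS replicate 3. Insig1, the sterol sensor, read 51, 42.6 and 22.4 FPKM in P9 and 102, 168 and 141 FPKM in FFSS, Stard4, a sterol carrier, 5.39, 6.22 and 3.7 and 11.2, 20.5 and 19.7 FPKM, and Ebp, a sterol isomerase, 22.7, 23.1 and 22.1 and 38.4, 56.2 and 40.8 FPKM. Srebf1, the lipogenic transcription factor, differed by -0.89 ± 0.15 (SE). Lipid handling genes had 8 of 17 higher in FFSS and 2 in P9, against 15.8% and 16.8% of all genes. Apoe read 22.5, 22.4 and 36.4 FPKM in P9 and 56.5, 79.4 and 62.2 FPKM in FFSS, Abca1, a cholesterol exporter, 1.43, 1.08 and 0.934 and 5.06, 2.89 and 3.72 FPKM, and the fatty acid carrier Fabp4 0, 0 and 0.0928 and 2.11, 14.2 and 8.68 FPKM. The 2 toward P9 were Pdk4 and Acaca; the call of Acaca was lost in 6 of the 9 fits without 1 library, and without FFSS replicate 1 the 2 became 4. The 5 adipocyte markers summed to 0.372 to 0.625 FPKM in P9 and 3.01 to 15.4 FPKM in FFSS, led by Fabp4, and Adipoq was at 0 in the FFSS libraries.

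Hypoxia and glycolysis genes had 11 of 30 higher in FFSS, against 15.8% of all genes, and 7 without FFSS replicate 3. In P9 1 was higher, against 16.8% of all genes, with 2 without P9 replicate 3 and 5 without FFSS replicate 1. That 1 was Car9, the hypoxia-induced carbonic anhydrase, at 53, 51.4 and 43.3 FPKM in P9, 10.8, 15.5 and 14 FPKM in FFSS and 2.72, 4.25 and 2.13 FPKM in P3, so both models exceeded P3 and P9 did so further. Hif1a, the oxygen-regulated factor, read 34, 27.5 and 23.5 FPKM in P9 and 53.1, 60.4 and 62 FPKM in FFSS. Ddit4, an inhibitor of mTORC1, read 5.63, 8.85 and 4.25 FPKM in P9 and 19.4, 77.4 and 61.3 FPKM in FFSS, Pfkfb3, an activator of glycolysis, 5.69, 6.34 and 6.49 and 10.5, 12.7 and 12.7 FPKM, and the peptide hormone Adm 4.86, 5.15 and 13.2 and 98, 27.8 and 46.7 FPKM. Within FFSS, Ddit4 was lowest and Adm highest in replicate 1. Of 13 genes of the mitochondrial genome, 5 were higher in FFSS, against 15.8% of all genes. The 5 were 2 to 3 without any 1 P3 library, P9 replicate 1 or P9 replicate 3, and 0 in a fit of the 6 libraries alone. The oxidase subunits COX1 and COX2 differed by -0.65 ± 0.16 (SE) and -0.78 ± 0.19 (SE), COX3 by -0.64 ± 0.19 (SE) and the ATP synthase subunit ATP6 by -0.67 ± 0.17 (SE). These 4 calls were lost when no gene was filtered out (adjusted p of 0.124 to 0.352), that of COX1 also without P9 replicate 3 and that of COX3 in 6 of the 9 fits without 1 library. Nuclear genes of oxidative phosphorylation did not share that direction, with 0 of 33 higher in FFSS and 3 higher in P9, a count of 8 without FFSS replicate 1 and 1 without any one P3 library, P9 replicate 2, FFSS replicate 2 or FFSS replicate 3. None of the 35 tested cytosolic ribosomal proteins was called by limma, with 8 higher in P9 and 1 in FFSS without FFSS replicate 1 and 2 higher in P9 by voom on rebuilt fragments; 5 had an unadjusted p under 0.05.

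Tenm4, a teneurin transmembrane protein, was below the level tested in both models, at 0.446, 0.445 and 0.485 FPKM in P9, 0.282, 0.0723 and 0.165 FPKM in FFSS and 2.07, 1.78 and 2.13 FPKM in P3. Each P9 and FFSS library lay below each P3 library, and P9 and FFSS did not overlap. Of its family and their latrophilin receptors, 3 were tested: Adgrl2 was higher in P9, at 70.5, 57.4 and 47.2 FPKM against 13.3, 13.9 and 13.8 FPKM in FFSS (adjusted p = 3.24e-05), and Adgrl1 higher in FFSS (adjusted p = 0.0216), a call lost without P9 replicate 1, P9 replicate 2 or FFSS replicate 3. Tenm3 read 12.7, 11.8 and 15.8 FPKM in P9 and 12.2, 6.77 and 9.9 FPKM in FFSS (adjusted p = 0.0937, and called without FFSS replicate 1). These 3 were named after their values were seen.

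**Figure D5:**
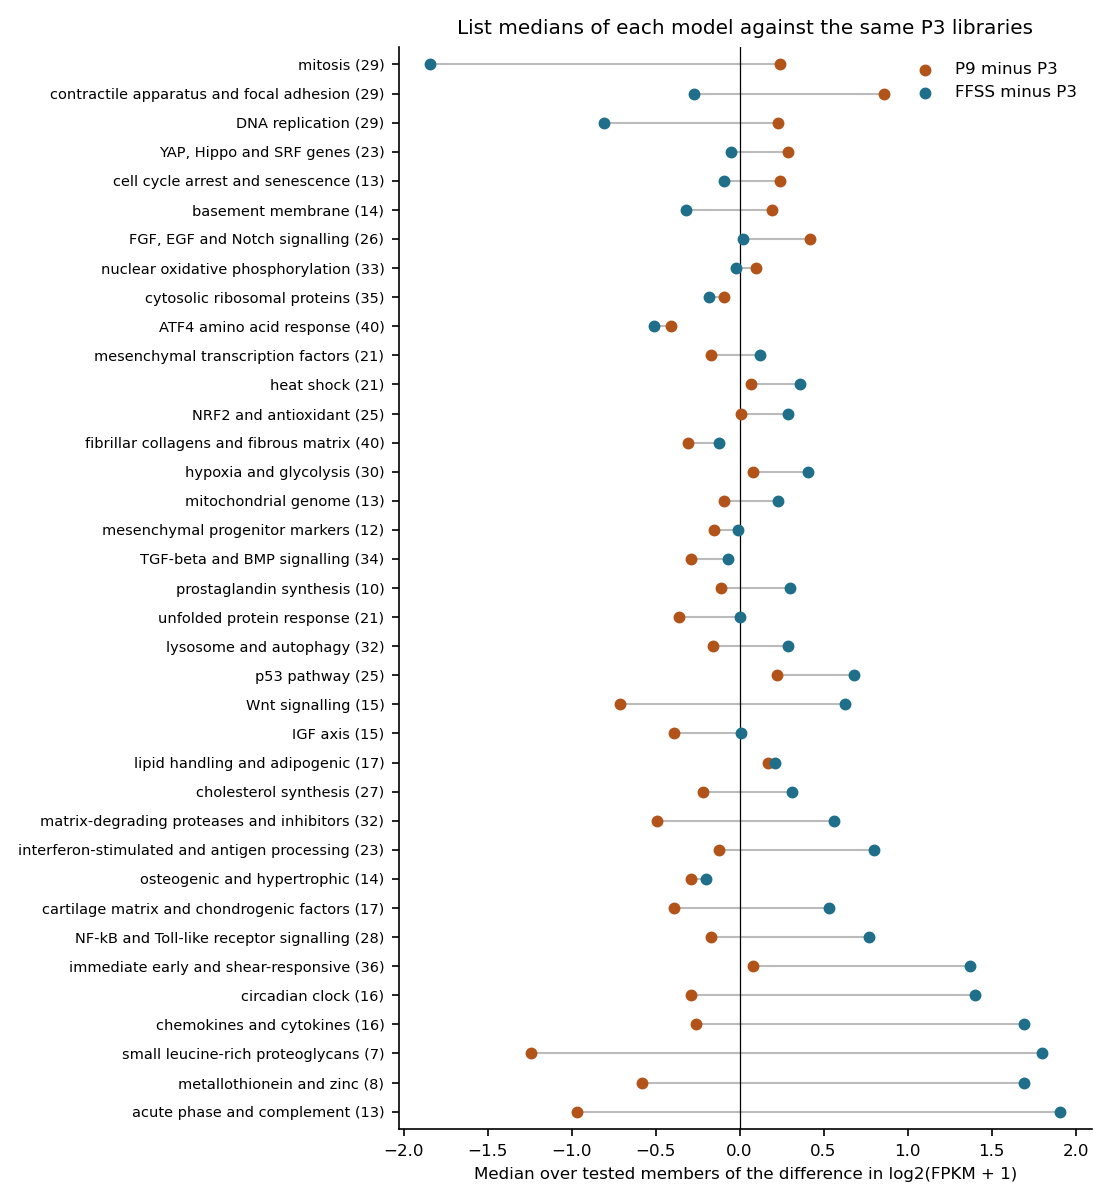
Median over the tested members of each list of the difference in log2(FPKM + 1) from the shared P3 libraries, in P9 (orange) and in FFSS (blue), ordered by the median difference of P9 minus FFSS; number tested in parentheses. Mitosis and DNA replication lie near 0 in P9 and below it in FFSS, while small leucine-rich proteoglycans and acute phase genes lie below 0 in P9 and above it in FFSS.

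Set beside the P3 level, the programs differed in which model lay off it, as the plot of list medians shows. For mitosis, immediate early genes, the clock, NF-kB signalling and the joint chemokine and cytokine list, the median from P3 was between -0.29 and 0.24 in P9. In FFSS it was -1.84, 1.37, 1.40, 0.77 and 1.69, in that order. Within the joint list, chemokines lay on opposite sides of P3, at -0.76 in P9 and 2.43 in FFSS. Its interleukins and colony-stimulating factors lay at 0.35 and 1.56. For the contractile list the larger median was in P9. Small leucine-rich proteoglycans, acute phase and complement genes and matrix-degrading proteases with their inhibitors lay on opposite sides of P3, at -1.24, -0.97 and -0.49 in P9 and 1.80, 1.91 and 0.56 in FFSS. Both models are set against the same 3 control libraries here, and these medians carry no test.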

How the data were processed

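Polyadenylated RNA was sequenced in 9 libraries, 3 each of P3, P9 and FFSS. Per the submitters' processing notes, the tools were HISAT2 2.0.5 and featureCounts 1.5.0-p3, on build Rnor_6.0; their settings and the strandedness are not given in the sources used here, so reads of a gene and of an antisense partner cannot be told apart. The authors deposited FPKM values for 34267 genes. FPKM times gene length was a whole multiple of 1 step per library for 100% of values (tolerance 0.01 of a step), which gave the fragments behind each value, 13264930 to 15323790 in all per library; 0 fragments still allow 3, which covers counting error only.

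A gene was kept where 3 or more of the 6 P9 and FFSS libraries reached 1 FPKM (12583 genes). The log2(FPKM + 1) values, a scale that understates changes of low genes, went into limma 3.58.1 (R 4.3.3), with 1 mean per group, the variance prior allowed to follow expression (eBayes trend) and 6 residual degrees of freedom from the 9 libraries; P3 enters the estimate of spread and not the contrast. The test of P9 minus FFSS was two-sided, with Benjamini-Hochberg adjustment over all genes. The scripts were tested on simulated data. Tables and figures used Python 3.11.15, pandas 2.3.3 and matplotlib 3.10.9.

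The comparison, the 38 program lists and the 10 marker lists were chosen with earlier results of these data known, and symbols in the lists were updated to those of the deposited table. Named were 12 genes of senescence, cartilage and matrix breakdown, the 10 largest differences each way (called, non-overlapping, at least 10 FPKM, called in each fit without 1 library), and up to 4 members per direction with the smallest adjusted p of lists with at least 5 tested members of which at least 20% were called. Genes outside this rule are marked as named after their values were seen, and 1 gene that the rule chose is not reported here.

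Promoters are the 250 bases before the start of 27457 genes in RefSeq (GRCr8); of 995 list genes, 714 had one on the chromosome that the deposited table gives, and 3 on another chromosome were left out. Motifs were matched on both strands, and a match is a description only. Alternatives were a pseudocount of 0.1, no filter, a filter of 5 FPKM, library totals, the 6 libraries alone, library weights, voom on rebuilt fragments, a minimum log2 difference of 1, the replicate block, and leaving out each library. A fit of the 6 libraries without FFSS replicate 1 was added after seeing the data.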

Additional observations from a re-analysis of the deposited data

How the results depend on the processing

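The count of genes higher in P9 (2110) and higher in FFSS (1989) stayed within 1.5 times under the other pseudocount, both filters, library totals and voom. In the 6 P9 and FFSS libraries alone the counts were 1257 and 1280, with library weights (gene by gene, since the default estimate did not converge) 3798 and 3606, and with a log2 difference of at least 1 they were 796 and 907. Leaving out 1 library gave 1421 to 3054 and 1294 to 2895, both lowest without FFSS replicate 3 and highest without FFSS replicate 1. The 6 libraries without FFSS replicate 1, an alternative chosen after seeing the data, gave 2328 and 2345. With the replicate block the counts were 1863 and 1799. Deviations of P9 and FFSS libraries of the same number correlated at -0.021, -0.020 and -0.0049, and those of different numbers at -0.042 to 0.040. Whether libraries of the same number share an animal or culture was not tested. Of the 221 genes named, 213 were called, 188 of them in every fit without 1 library, and 29 lost the call under another alternative; 0 called genes changed direction. Library totals and voom moved the median of all genes by 0.05 and 0.06. Depth limits low genes such as Col2a1, Tenm4 and Gdf5.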
